A study of Mus musculus with 16 samples.

Results

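The matrix metalloproteinases and their inhibitors are described here in macrophages sorted from mouse fat, as 10 genes: 7 matrix metalloproteinases (Mmp2, Mmp8, Mmp9, Mmp12, Mmp13, Mmp14 and Mmp19) and 3 tissue inhibitors of metalloproteinases (Timp1, Timp2 and Timp3). They were taken by name, as every probe set whose sole gene symbol was one of these 10, which gave 23 probe sets. They are 10 of 18193 genes with such a probe set, and all 10 were among the 11908 genes bright enough to test. The macrophages came from perigonadal fat of C57BL/6J mice aged 12 to 14 weeks and fell into 4 groups of 4 arrays. Obese-FBC and Lean-FBC cells carried F4/80, CD11b and CD11c on their surface, and Obese-FB and Lean-FB cells carried F4/80 and CD11b without CD11c. Obese mice were Lep ob/ob, which lack functional leptin and overeat, and lean mice were Lep +/+. All groups shared the enzymatic digestion of the fat, the sort and 2 rounds of RNA amplification, and obesity stands here for the loss of 1 gene in every tissue, not for a diet. Both populations came from the same count of animals, 4 obese and 4 lean mice, and the titles number the arrays 1 to 4 within each group.

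Matrix metalloproteinases are zinc-dependent enzymes, secreted or anchored in the cell membrane, that cut collagens, elastin, gelatin and other matrix proteins outside the cell, and also cut cytokines and cell surface proteins. Most are made as inactive precursors and are blocked after activation by TIMPs, which sit in the active site. As fat expands its matrix is remodelled, and macrophages are among the cells that make both the enzymes and the inhibitors.

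The quantity measured was RNA, as fluorescence intensity per probe set on Affymetrix Mouse Genome 430 2.0 arrays, so enzyme activity was not read. Levels are normalized log2(intensity + 16) values, for which 5.87 is the median of every array, and levels of different genes cannot be compared because each probe set has its own brightness. The 2% trimmed mean of the deposited intensities was 250 on each array, and the number of arrays limits the precision. Changes are differences of levels ± SE from limma, and a gene is called where its p, adjusted over all tested genes, was under 0.05. All 8 macrophage markers were above the array median on every array, and Itgax, which encodes CD11c, was higher in FBC than in FB cells of obese mice (log2 change 2.20 ± 0.26, adjusted p = 0.000111) and lean mice (1.49 ± 0.26, adjusted p = 0.0213). RNA quality set 3 arrays apart. The intensity of the actin probe set near the transcript's 3' end, divided by that of the one near its 5' end, was 48 on Lean-FBC 4, 45 on Obese-FB 4 and 53.3 on Lean-FB 4, against 1.15 to 10.9 on the other 13 arrays. Results that depend on any 1 of them are also given without it.

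Of the 10 genes 5 were called in at least 1 comparison, and their patterns differed from gene to gene. Obese-FBC cells, against Lean-FBC cells, had lower Mmp9 and Timp1, so 2 of 10 were called where 14.1% of all genes were. In Obese-FB cells, against Lean-FB cells, Mmp8 was higher and Mmp9 lower, again 2 of 10, against 5.89% of all genes. FBC cells had higher Mmp12 than FB cells in both genotypes; in obese mice they also had higher Timp2 and lower Mmp8. That made 3 of 10 called in obese mice, against 8.39% of all genes, and 1 of 10 in lean mice, against 0.193%. The median change of the 10 genes was 0.01, -0.78, 0.39 and -0.32 in these 4 comparisons in the order given, beside 0.08, 0.03, 0.08 and 0 over all tested genes. With so few genes these shares are descriptions, and the comparisons share arrays, so their values are set side by side without a test of likeness.

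**Figure D1:**
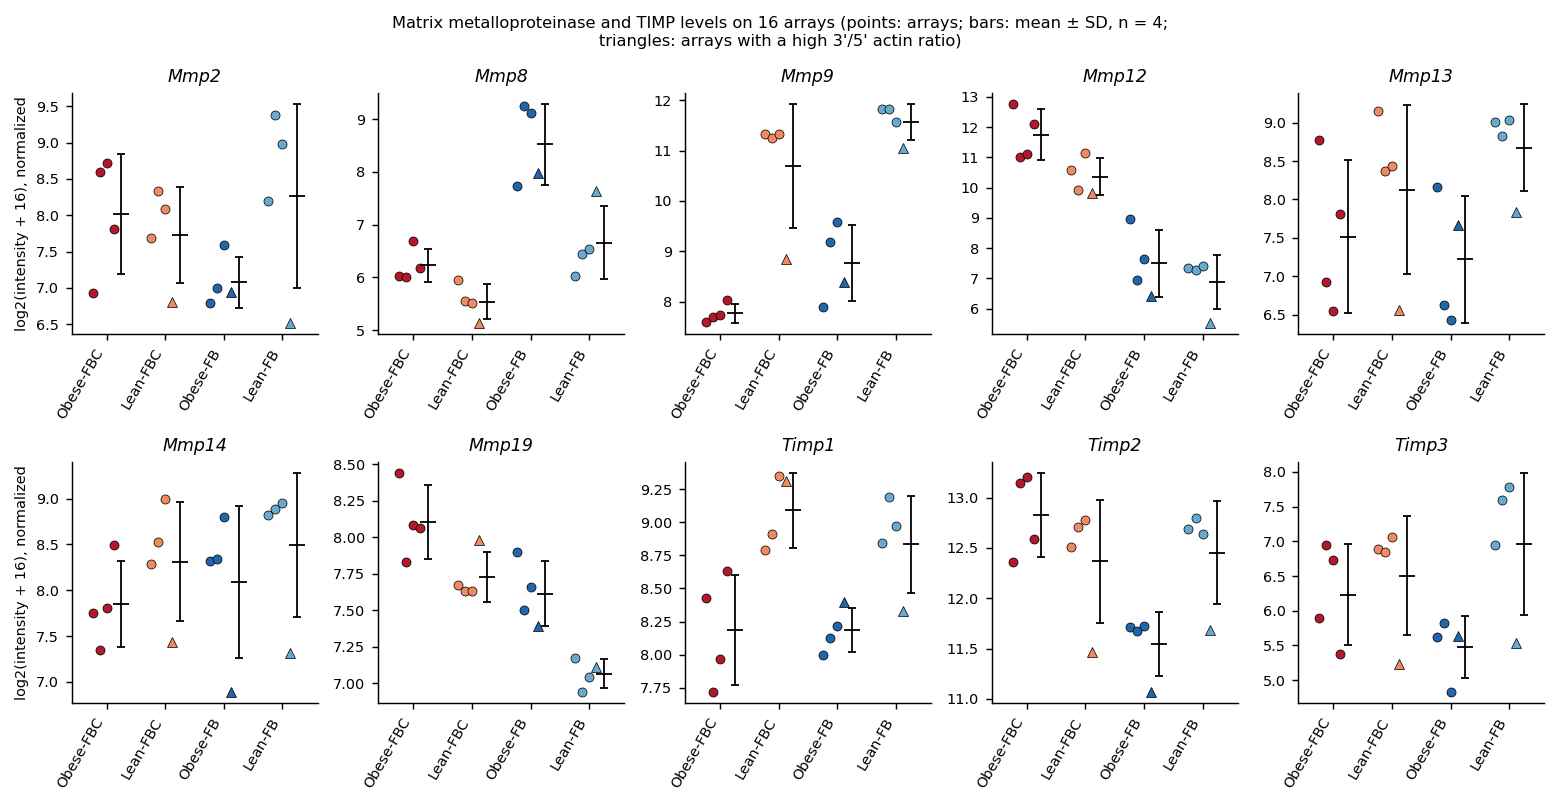
Normalized level (log2(intensity + 16), vertical axis of each panel) of the 10 genes on the 16 arrays, grouped as Obese-FBC, Lean-FBC, Obese-FB and Lean-FB; points are arrays, bars the mean ± SD (n = 4), and triangles the 3 arrays with a high 3' to 5' actin ratio. Mmp12 was at 9.82 or above on all 8 FBC arrays and at 8.97 or below on all 8 FB arrays, while Mmp9 was at 11.06 or above on 7 of 8 lean arrays and at 9.58 or below on all 8 obese arrays.

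Mmp12 encodes macrophage elastase, which cuts elastin and is made mainly by macrophages. Its level was 12.77, 11, 11.11 and 12.09 on the Obese-FBC arrays, against 8.97, 6.96, 7.65 and 6.41 on the Obese-FB arrays. Lean-FBC arrays had 10.59, 9.92, 11.13 and 9.82, against 7.33, 7.29, 7.40 and 5.54 on the Lean-FB arrays. In neither genotype did FBC and FB arrays overlap, and the difference of the means exceeded the SD of every group. Mmp12 was 19.0-fold higher in Obese-FBC than in Obese-FB cells (log2 change 4.25 ± 0.55, adjusted p = 0.000225) and 11.1-fold higher in Lean-FBC than in Lean-FB cells (3.48 ± 0.55, adjusted p = 0.0129). By p it ranked 33rd and 7th of all tested genes in these comparisons. Leaving out Lean-FBC 3 took the lean change to 3.22 with an adjusted p of 0.0554. In sorted bulk samples like these, fewer cells that make a transcript and less of it in each cell cannot be told apart.

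Between obese and lean mice Mmp12 did not pass the test. Obese-FBC arrays averaged 11.74 ± 0.84 and Lean-FBC arrays 10.37 ± 0.62 (SD, n = 4 each), a log2 change of 1.38 ± 0.55 (adjusted p = 0.103), with Obese-FBC 2 and Obese-FBC 3 just below the highest Lean-FBC array. In FB cells the means were 7.50 ± 1.10 in obese and 6.89 ± 0.90 in lean mice (log2 change 0.61 ± 0.55, adjusted p = 0.582). On Lean-FB 4, an array with a high actin ratio, Mmp12 lay below the array median. The difference of the obesity effects was 0.77, with a 95% interval of -0.86 to 2.40 that includes 0.

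Mmp9 encodes gelatinase B, a secreted enzyme that cuts denatured collagen and basement membrane collagen, and it was the gene most clearly lower in obesity. Obese-FBC arrays had levels of 7.60, 7.70, 7.74 and 8.04, against 11.32, 11.25, 11.33 and 8.84 on the Lean-FBC arrays. Obese-FB arrays had 7.90, 9.19, 9.58 and 8.39, against 11.83, 11.82, 11.57 and 11.06 on the Lean-FB arrays. Every obese array was below every lean array of its cell population. The log2 change was -2.92 ± 0.47 in FBC cells (adjusted p = 0.000645) and -2.80 ± 0.47 in FB cells (adjusted p = 0.00178), a 6.99-fold lower level in Obese-FB cells. Lean-FBC 4 stood far below the other Lean-FBC arrays, and without it the FBC change was -3.53. The second Mmp9 probe set gave changes of -3.99 ± 0.62 in FBC and -3.72 ± 0.62 in FB cells.

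The obesity effects on Mmp9 in FBC and FB cells differed by -0.11 (95% interval -1.51 to 1.29), an interval that includes differences of either sign. Between FBC and FB cells Mmp9 differed by -1 ± 0.47 in obese mice (adjusted p = 0.196) and by -0.89 ± 0.47 in lean mice (adjusted p = 0.659), and neither passed the test. In obese mice it was called in 4 of 32 alternatives. One left out Lean-FBC 4, an array outside that comparison that enters through the shared spread (log2 change -1, adjusted p = 0.0418). The others were without the 3 arrays of high actin ratio (-1.12, adjusted p = 0.0254), with the log2 actin ratio as a covariate (-1.5, adjusted p = 0.041) and with array weights (-1.39, adjusted p = 0.00669). Neutrophils also make Mmp9. The neutrophil marker score, a mean of centred log2 levels over 10 genes, was 0.03 to 1.02 on Obese-FB and 0.24 to 0.89 on Lean-FB arrays, with 4 to 8 and 6 to 7 of its 10 genes above the array median. The median change of the 7 tested neutrophil markers between these groups was -0.64, and their part in the Mmp9 values was not tested.

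**Figure D2:**
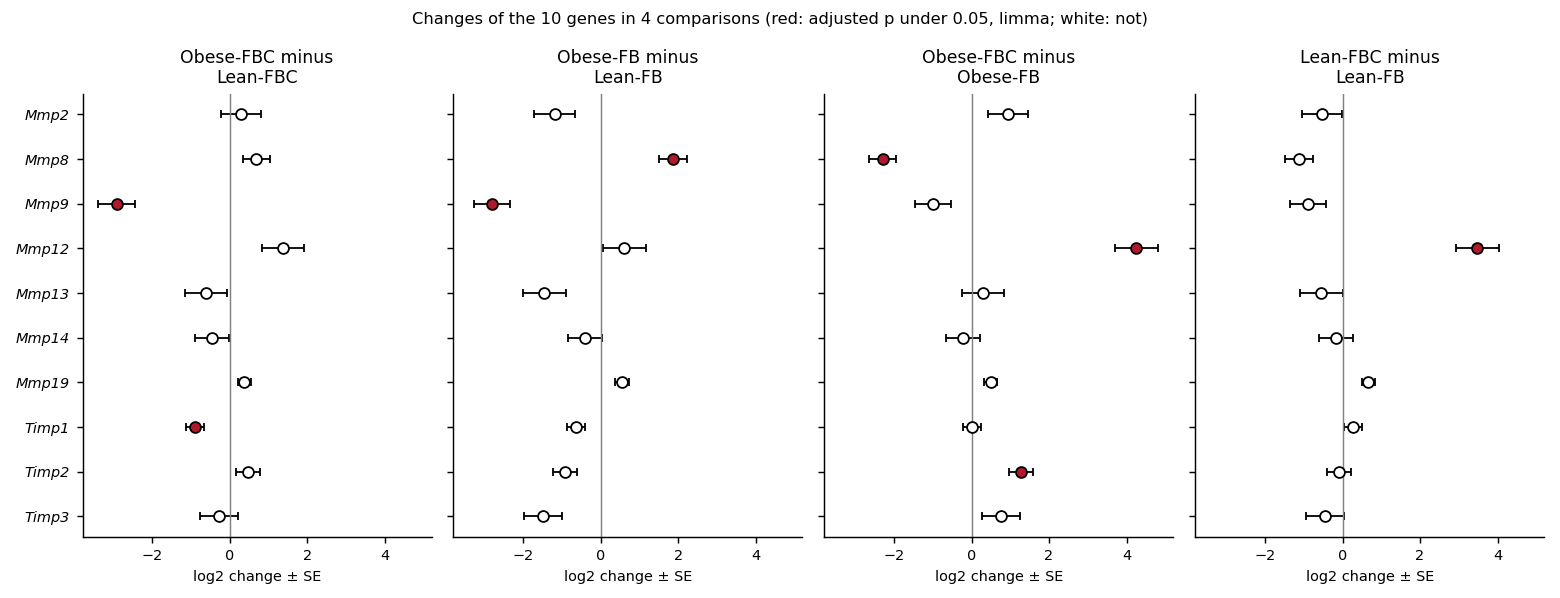
Log2 change ± SE (horizontal axis) of the 10 genes (rows) in 4 comparisons (panels, obese minus lean on the left and FBC minus FB on the right); red points passed the limma test at an adjusted p under 0.05 and white points did not. Mmp12 stands at 4.25 and 3.48 in the FBC against FB panels and Mmp9 at -2.92 and -2.80 in the obese against lean panels.

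Mmp8 encodes neutrophil collagenase, which cuts fibrillar collagen. Obese-FB arrays had levels of 7.74, 9.25, 9.12 and 7.98, against 6.02, 6.44, 6.53 and 7.64 on the Lean-FB arrays. Obese-FBC arrays had 6.03, 6.01, 6.69 and 6.18, against 5.95, 5.55, 5.52 and 5.14 on the Lean-FBC arrays, of which 1 was above the array median. Obese-FB was thus the group with the highest Mmp8, and it overlapped with no other group. Mmp8 was 3.65-fold higher in Obese-FB than in Lean-FB cells (log2 change 1.87 ± 0.36, adjusted p = 0.00535) and 4.92-fold lower in Obese-FBC than in Obese-FB cells (-2.30 ± 0.36, adjusted p = 0.00106). Both calls held without each array in turn.

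The same 2 contrasts were smaller elsewhere and did not pass the test. Mmp8 differed by 0.69 ± 0.36 in Obese-FBC against Lean-FBC cells (adjusted p = 0.222) and by -1.12 ± 0.36 in Lean-FBC against Lean-FB cells (adjusted p = 0.342), although these groups did not overlap either. The difference between the obesity effects in FBC and FB cells was -1.18 ± 0.51 (unadjusted p = 0.0347, adjusted p = 0.334).

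Monocyte markers moved with Mmp8 around Obese-FB and Lean-FB 4, but not between obese and lean FBC cells. The monocyte score, over 4 genes that were above the median on every array, was 1.39 to 1.84 on Obese-FB arrays and -0.17 to 1.30 on Lean-FB arrays. On Obese-FBC arrays it was -1.18 to -0.93 and on Lean-FBC arrays -1.09 to -0.37. Between these FBC groups Mmp8 changed by 0.69, which did not pass the test. The 4 monocyte markers had a median change of -0.02 there and 1 was called lower (14.1% of all genes called). Lean-FB 4, the array with the highest Mmp8 in its group, also had the highest monocyte score of that group, 1.30, while Lean-FB 1 to 3 were at -0.17 to 0.02. Summed monocyte marker intensity was 27818 to 30606 on Obese-FB and 8406 to 30482 on Lean-FB arrays. The neutrophil score averaged 0.58 on Obese-FB and 0.56 on Lean-FB arrays, and its highest Lean-FB value, 0.89, was also on Lean-FB 4. Its gene Cd177 was at 8.99 to 10.73 on Obese-FB arrays, 8.61 on Lean-FB 4 and 6.50 to 6.84 on Lean-FB 1 to 3. Another of its genes, S100a8, was at 8.17 to 10.66 on Obese-FB and 9.66 to 10.92 on Lean-FB arrays. Of the 7 tested neutrophil markers 1 was called higher and 0 lower there (5.89% of all genes called), with a median change of -0.64. In Obese-FBC against Obese-FB cells, where Mmp8 was lower, 5 of the 7 were called lower (8.39% of all genes called), with a median change of -1.88. On Obese-FBC arrays the neutrophil score was -1.07 to 0.22 and on Lean-FBC arrays -0.87 to -0.24, with 1 to 6 and 2 to 4 of 10 genes above the median. The part of monocytes or neutrophils in the Mmp8 values was not tested.

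**Figure D3:**
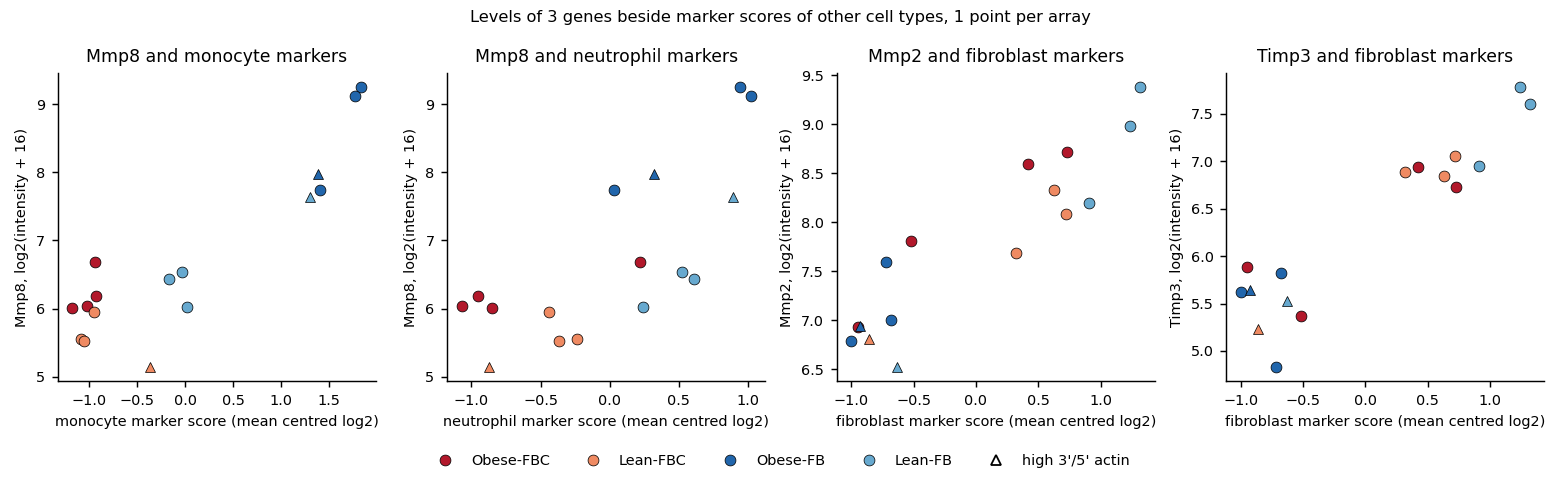
Normalized levels (vertical axes, log2(intensity + 16)) of Mmp8, Mmp2 and Timp3 on each of the 16 arrays against marker scores of monocytes, neutrophils and fibroblasts (horizontal axes, mean centred log2), with colours for the 4 groups and triangles for the 3 arrays with a high actin ratio. The 4 Obese-FB arrays and Lean-FB 4 have monocyte scores of 1.30 or more and Mmp8 levels of 7.64 or more; on the 8 arrays with fibroblast scores above 0, none of them Obese-FB, Timp3 was at 6.73 or more, against 5.89 or less on the other 8.

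Mmp13, an interstitial collagenase, and Mmp2, gelatinase A, varied widely within groups. Mmp13 had levels of 8.16, 6.63, 6.43 and 7.67 on Obese-FB arrays, against 9.01, 8.82, 9.04 and 7.83 on Lean-FB arrays, with Obese-FB 1 above the lowest Lean-FB array, and its change of -1.45 ± 0.55 did not pass the test (adjusted p = 0.14). Its group means were 7.51 ± 1 in Obese-FBC and 8.13 ± 1.10 in Lean-FBC cells (log2 change -0.61 ± 0.55, adjusted p = 0.498). For Mmp2, Obese-FB arrays had 6.79, 7.00, 7.59 and 6.94, against 8.20, 9.38, 8.98 and 6.52 on Lean-FB arrays. The first 3 Lean-FB arrays were above every Obese-FB array and Lean-FB 4 was below them all. The Mmp2 change in FB cells was -1.19 ± 0.52 (adjusted p = 0.205), and it was -1.78 with an adjusted p of 0.0124 without Lean-FB 4. In FBC cells Mmp2 averaged 8.01 ± 0.83 in obese and 7.73 ± 0.66 in lean mice, a change of 0.29 ± 0.52 (adjusted p = 0.762) whose sign turned without Lean-FBC 4 (-0.02).

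Neither gene passed the test between cell populations as fitted here. FBC against FB cells differed in Mmp2 by 0.94 ± 0.52 in obese mice (adjusted p = 0.277) and by -0.54 ± 0.52 in lean mice (adjusted p = 0.852). Mmp13 differed by 0.29 ± 0.55 and -0.55 ± 0.55 in these comparisons (adjusted p = 0.783 and 0.865).

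Mmp14 and Mmp19 cut matrix at or near the cell surface. Mmp14 encodes a membrane-anchored enzyme that also activates pro-MMP2. It averaged 7.85 ± 0.47 on the Obese-FBC arrays and 8.31 ± 0.65 on the Lean-FBC arrays (SD, n = 4 each). The FB means were 8.08 ± 0.83 for obese and 8.50 ± 0.79 for lean mice. Its 4 changes lay between -0.46 and -0.18 with adjusted p-values of 0.524 to 0.957, and none passed the test. Its lowest value in the 3 groups that hold an array with a high actin ratio was on that array, at 7.44 on Lean-FBC 4, 6.89 on Obese-FB 4 and 7.32 on Lean-FB 4. Without these 3 arrays Mmp14 was called lower in Obese-FBC than in Lean-FBC cells (-0.75, adjusted p = 0.044). With the log2 actin ratio as a covariate it was called there (-1.04, adjusted p = 0.0113) and in Obese-FBC against Obese-FB cells (-0.89, adjusted p = 0.0479).

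Mmp19 cuts basement membrane components, and its SD was 0.10 to 0.25 within each group. Its levels were 8.44, 7.83, 8.08 and 8.06 in Obese-FBC, against 7.67, 7.63, 7.63 and 7.98 in Lean-FBC cells. Obese-FB arrays had 7.90, 7.50, 7.66 and 7.39, against 7.17, 6.94, 7.04 and 7.11 on Lean-FB arrays. All 4 means lay in the order Obese-FBC, Lean-FBC, Obese-FB and Lean-FB, and Lean-FB overlapped with no other group, but no comparison passed the test as fitted here. The changes were 0.38 ± 0.17 (FBC, obese against lean, adjusted p = 0.146), 0.55 ± 0.17 (FB, adjusted p = 0.0663), 0.49 ± 0.17 (obese, FBC against FB, adjusted p = 0.0806) and 0.66 ± 0.17 (lean, adjusted p = 0.164). Without Obese-FB 4 the FB change was 0.62 (adjusted p = 0.0491), and without Obese-FB 1 the change between obese FBC and FB cells was 0.59 (adjusted p = 0.0469). Under the 32 alternatives tried, Mmp19 was called in 4 for the FB change and in 6 for the change between obese cells (0.68 without quantile normalization, adjusted p = 0.0231), and in 1 for each of the other 2 comparisons. The second Mmp19 probe set had changes of the same sign, 0.23 to 0.78.

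Among the inhibitors, Timp1, a secreted and inducible TIMP, was lower in FBC cells of obese mice. Obese-FBC arrays had levels of 8.43, 7.72, 7.97 and 8.63, against 8.79, 8.91, 9.35 and 9.31 on the Lean-FBC arrays. Obese-FB arrays had 8, 8.13, 8.22 and 8.40, against 8.84, 9.19, 8.97 and 8.33 on the Lean-FB arrays. The FBC arrays did not overlap between genotypes, and in FB cells the groups overlapped through Lean-FB 4. Timp1 was 1.87-fold lower in Obese-FBC than in Lean-FBC cells (log2 change -0.90 ± 0.23, adjusted p = 0.015). Without Obese-FBC 2 this change was -0.75 with an adjusted p of 0.0574. In FB cells it was -0.64 ± 0.23 (adjusted p = 0.112), and -0.81 with an adjusted p of 0.0271 without Lean-FB 4. Timp1 did not pass the test between FBC and FB cells, with changes of 0.00 ± 0.23 in obese mice (95% interval -0.49 to 0.48) and 0.26 ± 0.23 in lean mice (-0.22 to 0.74).

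Timp2, a mostly constitutive TIMP that also takes part in the activation of pro-MMP2, was the called inhibitor between FBC and FB cells of obese mice. Its levels were 12.36, 13.15, 13.21 and 12.59 on Obese-FBC arrays, against 11.71, 11.68, 11.72 and 11.07 on Obese-FB arrays, with no overlap. Lean-FBC arrays had 12.51, 12.71, 12.78 and 11.47, against 12.69, 12.80, 12.64 and 11.69 on Lean-FB arrays, where the array with a high actin ratio was the lowest of each group. Timp2 was 2.44-fold higher in Obese-FBC than in Obese-FB cells (log2 change 1.28 ± 0.31, adjusted p = 0.0178), beside -0.09 ± 0.31 in lean mice (adjusted p = 0.968). The obese change passed narrowly: it was 1.13, 1.18 and 1.16 without Obese-FB 4, Obese-FBC 2 or Obese-FBC 3, with adjusted p-values of 0.0622, 0.0642 and 0.0552, and 1.31 with an adjusted p of 0.0633 as the mean of the probe sets.

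Between obese and lean mice Timp2 differed by 0.46 ± 0.31 in FBC cells (adjusted p = 0.352) and by -0.91 ± 0.31 in FB cells (adjusted p = 0.0963), and neither passed the test. The FB change was -1.17 with an adjusted p of 0.0179 without Lean-FB 4, and -0.91 with an adjusted p of 0.041 without Lean-FBC 4, which enters through the shared spread. The difference of the 2 obesity effects was 1.37 ± 0.44 (95% interval 0.44 to 2.31), with an unadjusted p of 0.00653 and an adjusted p of 0.203. Without Lean-FB 4 it was 1.63 with an adjusted p of 0.0436.

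Timp3, the TIMP that binds to the matrix and also inhibits several ADAM proteinases, was near the array median. It was above that median on 9 of 16 arrays and on none of the Obese-FB arrays, so its low levels are those of a dim probe set. Obese-FB arrays had 5.62, 5.82, 4.83 and 5.64, against 6.95, 7.60, 7.78 and 5.53 on Lean-FB arrays. Obese-FBC arrays had 5.89, 6.94, 6.73 and 5.37, against 6.89, 6.84, 7.06 and 5.23 on Lean-FBC arrays. Lean-FB 1 to 3 lay above every Obese-FB array and Lean-FB 4 lay among them, and the FBC groups overlapped. The FB change was -1.49 ± 0.49 (adjusted p = 0.0846), with -1.97 and an adjusted p of 0.00796 without Lean-FB 4, and -1.49 with an adjusted p of 0.0436 without Lean-FBC 4. In FBC cells it was -0.27 ± 0.49 (adjusted p = 0.76), and between FBC and FB cells 0.76 ± 0.49 in obese and -0.46 ± 0.49 in lean mice (adjusted p = 0.353 and 0.869).

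Markers of fibroblasts, which make Mmp2, Timp2 and Timp3 in fat, moved with Mmp2 and Timp3, and with Timp2 only in part. The fibroblast score over 17 genes was -1 to -0.68 on Obese-FB arrays, against 0.91 to 1.32 on Lean-FB 1 to 3 and -0.63 on Lean-FB 4. On FBC arrays it was -0.95, 0.42, 0.73 and -0.52 in obese and 0.32, 0.63, 0.72 and -0.86 in lean mice. Timp2 was at 12.36 and 12.59 on Obese-FBC 1 and 4, which had scores of -0.95 and -0.52. It was at 11.07 to 11.72 on the Obese-FB arrays, whose scores were also low. Lean-FB 4 and Lean-FBC 4, with scores of -0.63 and -0.86, had Timp2 at 11.69 and 11.47. Summed fibroblast marker intensity was 2612 to 3643 on Obese-FB and 3902 to 27719 on Lean-FB arrays, and 12 to 14 and 14 to 16 of the 17 genes were above the median. In Obese-FB against Lean-FB cells 7 of the 16 tested fibroblast markers were called, all lower, where 5.89% of all genes were called. So were 4 of 9 mesothelial, 2 of 4 adipocyte and 1 of 5 endothelial markers. No fibroblast marker was called in Obese-FBC against Lean-FBC or in Lean-FBC against Lean-FB cells. None was called in Obese-FBC against Obese-FB cells either, where Timp2 was called and the markers had a median change of 0.85. The part of fibroblast RNA in the Mmp2, Timp2 and Timp3 values was not tested.

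Across the 10 genes, the count called in FB cells depended on the array Lean-FB 4. Without it, 6 of 10 were called in Obese-FB against Lean-FB cells: Mmp8, and with lower levels Mmp2, Mmp9, Timp1, Timp2 and Timp3. Calls over all genes were then 1501, against 701 with every array. Without all 3 arrays of high actin ratio 8 were called, with Mmp13 (lower, -1.88) and Mmp19 (higher, 0.63) in addition, and 2022 genes in all. Leaving out Lean-FBC 4 gave 4 called and 941 in all. In Obese-FBC against Lean-FBC cells, leaving out Obese-FBC 2 left 1 called gene, Mmp9, with 1047 called in all, against 1675 with every array. For the difference of the obesity effects limma called 0 of the 10 genes, with 2 (Mmp8 and Timp2) at an unadjusted p under 0.05; over all tested genes 0.16% were called and 13.2% had an unadjusted p under 0.05. Timp2 was called there without Lean-FB 4 (log2 difference 1.63).

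Mmp13, Mmp12 and Mmp8 lie in a cluster of metalloproteinase genes on chromosome 9 that holds 10 protein-coding genes in RefSeq (GRCm38.p6). In gene order these are Mmp13, Mmp12, Mmp1b, Mmp3, Mmp1a, Mmp10, Mmp8, Mmp27, Mmp20 and Mmp7. All but Mmp27, which was not analysed here, had a probe set, and 4 were tested. Mmp12 and Mmp8, which lie in the same cluster, moved in opposite directions between Obese-FBC and Obese-FB cells, 4.25 and -2.30. Mmp3, stromelysin, lay between them, with changes of -0.09 to 0.74 and none called. Mmp1a, Mmp1b, Mmp10, Mmp20 and Mmp7 were above the median on 0 to 3 of 16 arrays and were not tested.

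**Figure D4:**
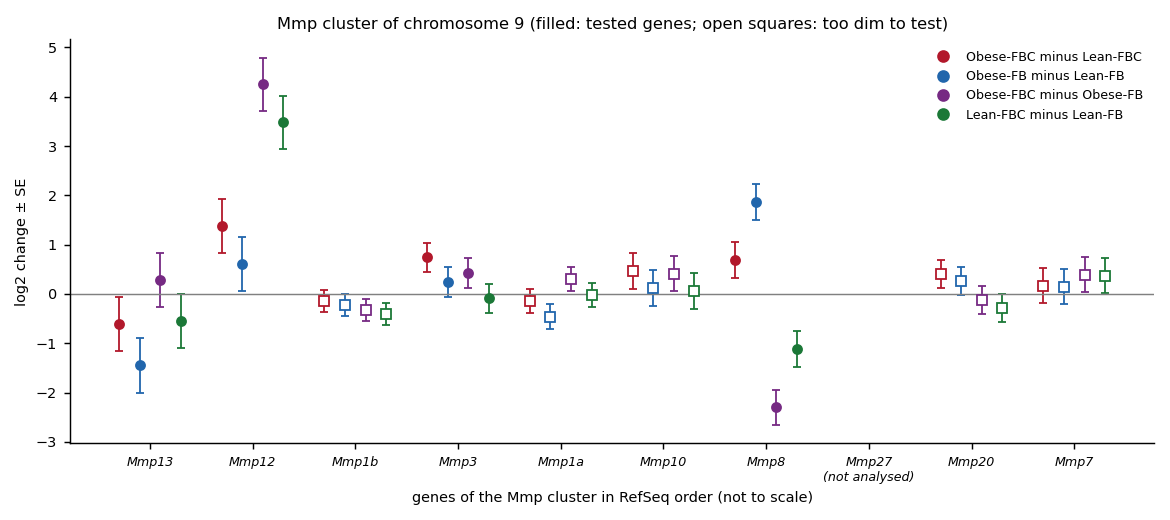
Log2 change ± SE (vertical axis) in 4 comparisons (colours) for the metalloproteinase genes of the chromosome 9 cluster, in gene order from left to right and not to scale, from a fit of all genes; filled points are tested genes and open squares genes too dim to test. Mmp12 (4.25 and 3.48) and Mmp8 (-2.30 and -1.12) move apart in the FBC against FB comparisons, while the dim genes lie between -0.46 and 0.47.

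The stretches before the starts of Mmp12 and Mmp8 are shown because these genes of 1 cluster moved apart. Each line is the 250 bases before a RefSeq start (GRCm38.p6, plus strand, 5′ to 3′), in lower case with motif matches in capitals. The motifs searched, on both strands, were AP-1 (TGANTCA), the TATA box (TATAAA), the PU box bound by PU.1 (GAGGAA) and the RUNX core (TGTGGT). Mmp12 has 2 RefSeq starts in the table, the upstream one first, at chr9:7344147-7344396 and chr9:7347124-7347373, and the Mmp8 stretch is at chr9:7558179-7558428.
Mmp12 start 1: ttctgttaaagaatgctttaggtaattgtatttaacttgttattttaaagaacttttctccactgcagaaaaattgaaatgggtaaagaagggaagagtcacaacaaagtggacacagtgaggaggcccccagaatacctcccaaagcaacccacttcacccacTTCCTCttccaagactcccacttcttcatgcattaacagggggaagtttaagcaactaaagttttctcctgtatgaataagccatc
Mmp12 start 2: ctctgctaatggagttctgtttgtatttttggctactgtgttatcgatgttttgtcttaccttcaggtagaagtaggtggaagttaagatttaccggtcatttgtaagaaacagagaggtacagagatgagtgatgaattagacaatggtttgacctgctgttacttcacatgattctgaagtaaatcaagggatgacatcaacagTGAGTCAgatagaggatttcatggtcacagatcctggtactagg
Mmp8: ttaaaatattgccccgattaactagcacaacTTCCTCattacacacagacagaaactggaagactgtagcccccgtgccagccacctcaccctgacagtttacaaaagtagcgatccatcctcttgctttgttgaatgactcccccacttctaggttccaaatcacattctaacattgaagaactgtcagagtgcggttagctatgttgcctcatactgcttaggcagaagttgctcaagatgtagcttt

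The capitals mark a PU box on the minus strand 86 bases before the first Mmp12 start, an AP-1 match 44 bases before the second, and a PU box on the minus strand 219 bases before the Mmp8 start. None of the 4 motifs was in the same window of Timp1 or Timp2, the other called genes with an entry in the table. Of the 32851 starts in the table, 6.75% held the AP-1 motif in these 250 bases, 12.4% the TATA box, 23.3% the PU box and 14% the RUNX core. A match describes letters, not binding.

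Genes with more than 1 probe set allowed a check of their changes. Mmp8, Mmp12, Mmp13 and Timp1 had 1 probe set each, so their changes had no such check. Of the 23 probe sets 18 passed the brightness filter. Both Mmp2 and both Mmp9 probe sets had changes of the same sign in all 4 comparisons. The 5 Timp2 probe sets past the filter had changes of 1.05 to 2.04 in Obese-FBC against Obese-FB cells, all higher, and of -1.38 to -0.72 in Obese-FB against Lean-FB cells, all lower. The 2 Timp3 probe sets past the filter gave -1.49 and -1.18 in FB cells. A probe set of Mmp14 below the filter had the opposite sign from the main one in FB cells (0.37 against -0.41).

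**Figure D5:**
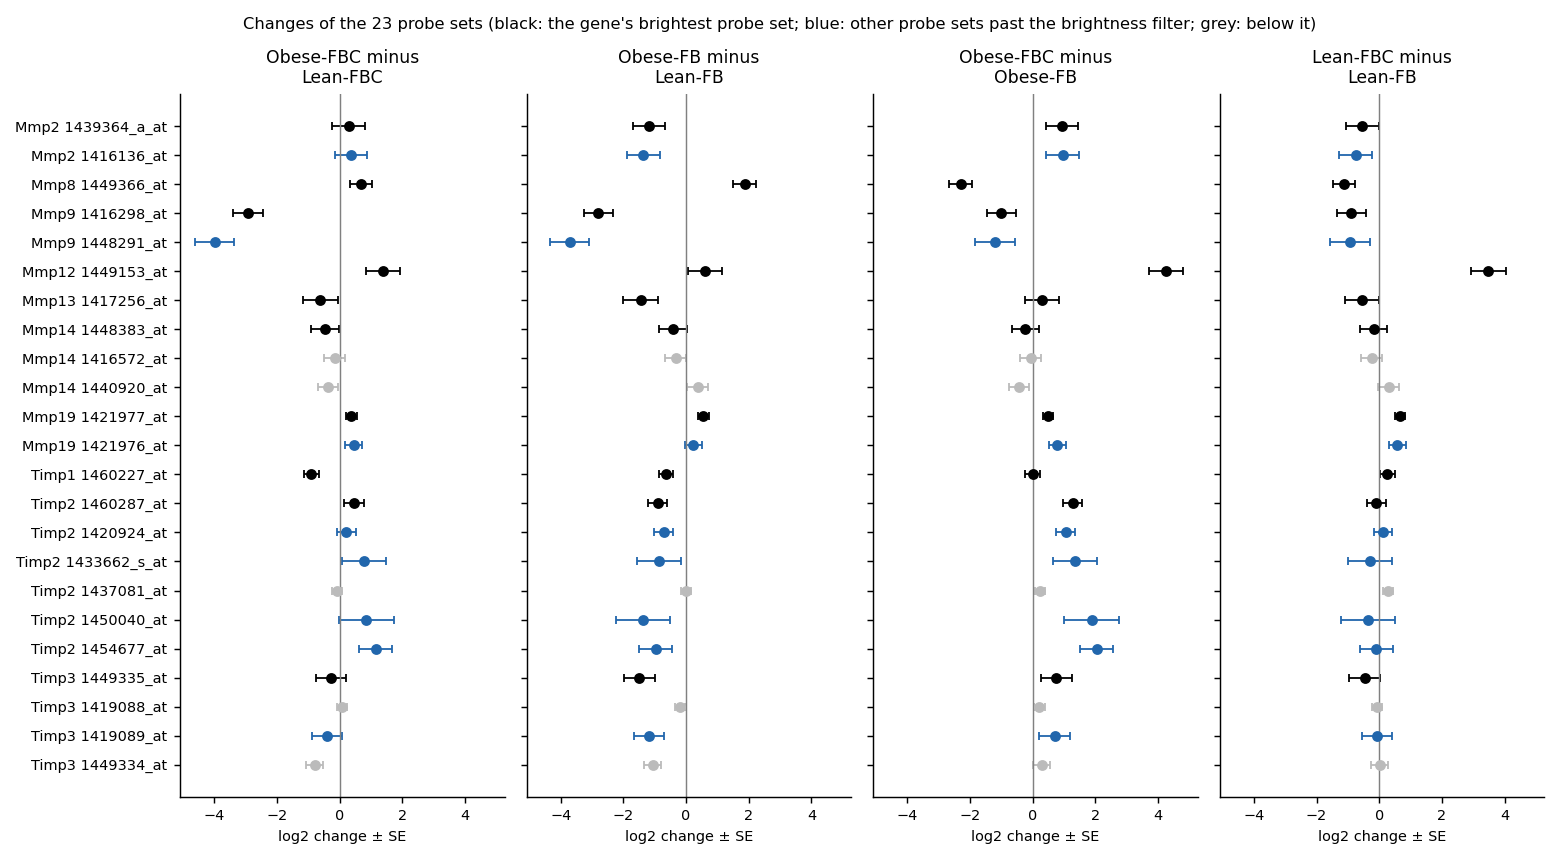
Log2 change ± SE (horizontal axis) of all 23 probe sets (rows, named by gene and array ID) in 4 comparisons (panels); black marks the brightest probe set of a gene, blue other probe sets past the brightness filter and grey those below it. The Mmp9 probe sets lie at -2.92 and -3.99 in FBC cells and at -2.80 and -3.72 in FB cells, and the 5 bright Timp2 probe sets at 1.05 to 2.04 in Obese-FBC against Obese-FB cells.

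For each called gene the 2 tested genes with the most similar profile over the 16 arrays were found by Pearson's r, a description over arrays that share groups and the 3 arrays of high actin ratio. Mmp12 was closest to F7, coagulation factor VII (r = 0.947), and Cd200r4, a relative of the CD200 receptor (r = 0.934). Mmp8 was closest to Hp, haptoglobin and one of the monocyte markers above (r = 0.952), and Trem3, a myeloid receptor (r = 0.949). For Mmp9, one of its 2 genes was Bank1, a scaffold protein of B cell receptor signalling (r = 0.941). Timp1 followed Otof, otoferlin (r = 0.96), and Mrps6, a mitochondrial ribosomal protein (r = 0.948), while Timp2 followed Wtip, a LIM domain protein (r = 0.973), and Gkap1, a kinase anchoring protein (r = 0.957).

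Other genes of the pathway were described by lists, whose counts stand beside calls for 14.1% of all genes in Obese-FBC against Lean-FBC cells, 5.89% in Obese-FB against Lean-FB cells, 8.39% between obese and 0.193% between lean populations. Of 16 further metalloproteinases 11 had a probe set used here and 3 were tested, Mmp3, Mmp23 and Mmp24. Mmp23 was lower in Obese-FB than in Lean-FB cells (log2 change -3.03 ± 0.51, adjusted p = 0.00204), where all 4 Obese-FB arrays were dim, at 4.45 to 4.95, and in Obese-FBC than in Lean-FBC cells (-1.66 ± 0.51, adjusted p = 0.0411). The FBC call was lost without any one of Lean-FB 1, Lean-FBC 1, 2 or 3, Obese-FB 2 or 3 and Obese-FBC 1 or 4, with changes of -1.66 to -1.20 and adjusted p-values of 0.0504 to 0.12. Of 3 other inhibitors, Reck, a membrane-anchored inhibitor, was lower in Obese-FB than in Lean-FB cells (-2.35 ± 0.22, adjusted p = 1.14e-05). Its levels were 5.12 to 5.50 on Obese-FB arrays, below the array median, and 7.12 to 8.07 on Lean-FB arrays, so for Reck and Mmp23 the size of the change is that against a dim group. Fibroblast scores were also lower on Obese-FB than on Lean-FB arrays, as given above, and their part in the Mmp23 and Reck values was not tested. Reck was also lower in Obese-FBC than in Lean-FBC cells (-0.84 ± 0.22, adjusted p = 0.0182; 0.0657 without Lean-FBC 2 and 0.0577 without Obese-FBC 1) and higher in Obese-FBC than in Obese-FB cells (0.90 ± 0.22, adjusted p = 0.0177; 0.0667 without Obese-FBC 2 and 0.051 without Obese-FBC 3). Tfpi2 was lower in Obese-FB than in Lean-FB cells (-1.52 ± 0.38, adjusted p = 0.0249), a call lost without any one of arrays 1 to 3 of either group (adjusted p of 0.0511 to 0.0965). Timp4 differed by -1.23 ± 0.59 there and did not pass the test (adjusted p = 0.252).

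Among other proteinase systems, several cathepsins were higher in obesity. All 8 genes of a list of cathepsins, legumain and cystatin C, their inhibitor, were tested, and 4 were called higher in Obese-FBC against Lean-FBC cells, 1 in Obese-FB against Lean-FB cells and 2 in Obese-FBC against Obese-FB cells, with median changes of 0.52, 0.31 and 0.43 beside 0.08, 0.03 and 0.08 over all tested genes. Ctsk, a collagen- and elastin-cutting cathepsin, changed by 3.51 ± 0.46, 2.37 ± 0.46 and 2.68 ± 0.46 in these comparisons (adjusted p = 0.000119, 0.0055 and 0.00197). In a list of plasminogen activators and their inhibitors 4 of 7 genes were tested; 1 was called higher and 2 lower in FBC cells of obese mice (14.1% of all genes called), 1 lower in their FB cells (5.89%) and 1 lower in Obese-FBC against Obese-FB cells (8.39%). Serpinb2, which inhibits urokinase, was 17.9-fold lower in Obese-FBC than in Lean-FBC cells (log2 change -4.16 ± 0.39, adjusted p = 5.09e-06). Of 13 tested ADAM and ADAMTS genes, 2 were called higher in FBC cells in obesity, 1 lower in FB cells and 1 higher in Obese-FBC against Obese-FB cells, shares near those over all genes. Adam8, a sheddase, changed by 1.24 ± 0.28 and 1.54 ± 0.28 in FBC cells in obesity and in Obese-FBC against Obese-FB cells (adjusted p = 0.00922 and 0.00324).

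Of 7 tested partners, activators and clearance receptors, 2 were called higher in FBC cells in obesity (14.1% of all genes called), 1 higher in FB cells (5.89%), and 1 higher and 1 lower in Obese-FBC against Obese-FB cells (8.39%). Lrp1, which takes up MMPs and TIMPs from outside the cell, was 3.40-fold higher in Obese-FBC than in Lean-FBC cells (log2 change 1.77 ± 0.33, adjusted p = 0.00242). Over the 32 alternatives this change was 0.83 to 1.92, called in all of them. Of 19 tested matrix genes 2 were called lower in FBC cells in obesity, 3 lower in FB cells, 1 lower in Lean-FBC against Lean-FB cells and 2 lower in Obese-FBC against Obese-FB cells. Their median changes were 0.11, -1.41, -0.62 and 1.07, beside 0.08, 0.03, 0 and 0.08 over all tested genes, and the list shares 5 genes with the fibroblast markers. Vcan, versican, was 16.1-fold lower in Obese-FBC than in Obese-FB cells (-4.01 ± 0.33, adjusted p = 7.26e-06). This is the change of its brightest probe set, and its size depended on the processing, at -4.33 to -1.49 over the 32 alternatives. It was called in all of them, and was -4.33 to -3.89 with single arrays left out. Of 18 tested transcription factors and cytokines known to act on metalloproteinase and TIMP genes, 2 were called lower in FBC cells in obesity, against 14.1% of all genes in either direction, and 3 lower in Obese-FBC against Obese-FB cells, against 8.39%. Il6, an inflammatory cytokine, changed by -3.06 ± 0.31 and -2.04 ± 0.31 in these comparisons (adjusted p = 8.71e-06 and 0.000874). Of 39 called changes in these lists that were followed with single arrays left out, 18 lost the call without at least 1 array. Every change named here for Ctsk, Serpinb2, Adam8, Lrp1, Vcan and Il6, and for Mmp23 and Reck in FB cells, was called without each array in turn.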

How the data were processed

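RNA of sorted FB and FBC cells from 4 lean and 4 obese mice was measured on 16 arrays in 4 groups, taken from the sample titles. The authors made the deposited intensities in Affymetrix Expression Console (submitters' processing notes). Neither its version nor how probes were summarized is given in the sources used here. The files show a 2% trimmed mean of 250 on every array, a scaling that fixes each array's overall brightness. Here log2(intensity + 16) was quantile normalized over all 45101 probe sets. Array medians were 5.69 to 6.06 before that step. Probe sets had 1 symbol (34945), several (932) or none (9160), and 64 were controls. For each of 18193 genes the probe set of highest mean among those with that symbol alone was used. The 11908 genes that exceeded the median of the array on 4 or more arrays were tested.

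One limma 3.58.1 fit (R 4.3.3, empirical Bayes, 12 residual degrees of freedom) over the 4 groups gave 5 comparisons, with Benjamini-Hochberg adjustment over all tested genes and a threshold of 0.05. The scripts were tested on simulated data. Named list genes are among the called genes of largest change in each list, at most 3 per comparison. The 10 genes and the lists were chosen with earlier results of these data known. Alternatives covered normalization, filter, pseudocount, choice of probe set, variance model, array weights, RNA quality, pairing, the groups in the fit and each array left out. Deviations of same-numbered FB and FBC arrays from their group means correlated at 0.135, 0.231, 0.299 and 0.595 in lean mice. In obese mice these correlations were 0.31, 0.033, -0.03 and -0.137. The best match of lean number 1 was number 3. The value of 0.595 is between Lean-FB 4 and Lean-FBC 4, both of high actin ratio (53.3 and 48). Pairing by mouse was therefore not shown for either genotype. The labels do not tie array numbers to mice. The other gene with a profile like that of Mmp9 is not reported here. Marker scores are means of log2 levels centred per gene over the arrays. Figures were drawn with matplotlib 3.10.9.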

Additional observations from a re-analysis of the deposited data

Results flagged for a closer look

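In 7 of the 40 combinations of gene and group, 1 array lay far from the other 3 by Dixon's criterion, where chance flags about 1 in 20 groups. All 7 were arrays numbered 4, and each was an array of high actin ratio (48 on Lean-FBC 4, 45 on Obese-FB 4 and 53.3 on Lean-FB 4); the part of RNA quality in these values was not tested.

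On Lean-FBC 4, the log2 level of Mmp9 was 8.84, against 11.25 to 11.33 on Lean-FBC 1 to 3. There Timp3 was at 5.23, against 6.84 to 7.06, and Mmp19 at 7.98, above the 7.63 to 7.67 of the others. On Lean-FB 4, Mmp12 was at 5.54, against 7.29 to 7.40 on Lean-FB 1 to 3, Mmp14 at 7.32, against 8.82 to 8.95, and Timp2 at 11.69, against 12.64 to 12.80. On Obese-FB 4, Timp2 was at 11.07, against 11.68 to 11.72 on the other Obese-FB arrays. Lean-FB 4 also differed from Lean-FB 1 to 3 in its monocyte score (1.30 against -0.17 to 0.02) and its fibroblast score (-0.63 against 0.91 to 1.32). Its eosinophil score, over 4 genes, was 2.04 against -0.23 to 0.22. Summed eosinophil marker intensity was 5056 there, against 301 to 437. The part of these cells in the values of Lean-FB 4 was not tested.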

How the results depend on the processing

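In 32 alternatives, 16 of which left out 1 array, the calls of Mmp9 in both obesity comparisons (log2 change -3.26 to -2.47 in FB and -3.53 to -2.70 in FBC cells), of Mmp8 in FB cells (1.62 to 2.52), and of Mmp8 (-2.78 to -2.05) and Mmp12 (3.56 to 4.74) between obese FBC and FB cells held. Of the 10 genes, 2 to 6 were called in Obese-FB against Lean-FB cells with an array left out, 8 with array weights, 5 with the replicate block, 4 with the actin ratio as a covariate and 8 without the 3 arrays of high ratio; calls over all genes were 701 as reported and 3987, 1034, 1159 and 2022 in these 4 settings. In Obese-FBC against Lean-FBC cells 1 to 2 were called with an array left out, 4 with array weights and 1 with a minimum change of 2-fold (1675 genes in all as reported, 4115 and 811 in these settings). Between lean FBC and FB cells these counts were 0 to 1 and, with array weights, 3 (23 genes in all as reported and 1324). Between obese FBC and FB cells they were 2 to 4, 5 with array weights and 5 with the actin covariate (999 in all as reported, 2202 and 689). For the difference of obesity effects they were 0 to 1, 2 with array weights and 1 with the replicate block (Timp2, 1.37, adjusted p = 0.0287). The fit of the groups compared alone gives no such difference. The replicate block also called Mmp12 in FBC cells (1.38, adjusted p = 0.0391) and Mmp2 between obese cells (0.94, 0.0399). In FB cells it called Timp2, Timp3 and Mmp19 as well (adjusted p = 0.0123, 0.0217 and 0.0479). The count between lean FBC and FB cells stayed at 1. Obese and lean arrays came from different mice, so in the obesity comparisons this block cannot pair arrays of the same mouse.

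Signs turned for changes near 0 that were not called in the fit reported. Mmp2 in FBC cells changed by -0.25 with array weights, -0.09 with the actin covariate, -0.02 without the 3 arrays, and -0.02 to 0.65 with an array left out. Mmp13 between obese FBC and FB cells changed by -0.21 with the actin covariate and -0.13 to 0.61 with an array left out. With an array left out Mmp14 ranged from -0.58 to 0.11 between lean and -0.63 to 0.01 between obese cells, and Timp3 in FBC cells from -0.70 to 0.02. Timp1 between obese cells changed by 0.16 without quantile normalization, 0.15 with median centring, 0.03 with cyclic loess, 0.08 with array weights, 0.07 without the 3 arrays and -0.15 to 0.15 with an array left out. Between lean cells Timp1 was at 0 with array weights, and Timp2 at 0.07 with median centring, 0.01 with array weights and -0.34 to 0.21 with an array left out. The difference of obesity effects turned for Mmp9 (0 without quantile normalization, -0.72 to 0.16 with an array left out), Mmp14 (0.13 without it, 0 with median centring, -0.45 to 0.34 with an array left out), Mmp19 (0.09 without it, 0.02 as the mean of probe sets) and Timp1 (0.08 with array weights, 0.05 without the 3 arrays). The cause was not tested.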
